A study of Mus musculus with 20 samples.

Results

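Smooth muscle contractile genes were followed across 20 mouse RNA sequencing libraries: Acta2, Actg2, Myh11, Mylk, Tagln, Cnn1, Cald1, Tpm2 and Flnc. The 9 genes were chosen by symbol as parts of the smooth muscle contractile apparatus, and each had 1 entry among the 22102 of the time course table and 1 among the 42458 of the discovery table. The time course followed E14 embryonic stem cells (strain 129/Ola) from day 0 to days 3, 6 and 9 of differentiation in 3 cultures, with 1 library per culture and day. Per the labels, each culture carried a lentiviral pLKO.1 short hairpin under puromycin selection: a scrambled hairpin in the control, hairpin A or hairpin B against the long noncoding RNA Braveheart in the depleted cultures. The protocols describe differentiation both through embryoid bodies and by a directed route to cardiomyocytes, without saying which applied. The discovery set held 8 libraries of untreated lines: wild-type E14 (129/Ola) and wild-type v6.5 (129/svJae x C57BL/6) embryonic stem cells with 2 libraries each, and 1 library of each of 4 others. These were Oct4-GFP embryonic fibroblasts (MEF, 129/svJae x C57BL/6), the partially reprogrammed lines 11.3 and 11.5 made from them, and the fully reprogrammed line miPS MCV8.1, also made from these fibroblasts. The 3 reprogrammed lines also carried retroviral Oct4, Sox2, c-myc and Klf4. Stem cells and miPS cells grew on irradiated MEF feeders that were removed by pre-plating, while 11.3 and 11.5 grew without feeders.

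Smooth muscle cells contract when calcium activates myosin light chain kinase, which phosphorylates the myosin regulatory light chain and lets smooth muscle myosin pull on actin filaments. Calponin, caldesmon, transgelin and tropomyosin sit along those filaments and tune the interaction. Many of these genes are controlled by serum response factor (SRF) through a DNA element called the CArG box, with myocardin and the myocardin-related factors as partners, and several are also switched on in fibroblast stress fibres, in response to TGF-beta, and for a time in the embryonic heart.

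The sequence just before the transcription start is shown for the 5 genes called higher during differentiation: Acta2, Mylk, Cald1, Cnn1 and Flnc. Cald1 and Flnc have 2 starts each in RefSeq, and of the Flnc windows the one that held a match is shown. Sequences are from RefSeq on GRCm38.p6, 5′ to 3′ on the gene's strand, and capitals mark a CArG box with 1 G or C among its 6 central bases.
Acta2, 250 bases before the start, chr19:34255374-34255623, minus strand: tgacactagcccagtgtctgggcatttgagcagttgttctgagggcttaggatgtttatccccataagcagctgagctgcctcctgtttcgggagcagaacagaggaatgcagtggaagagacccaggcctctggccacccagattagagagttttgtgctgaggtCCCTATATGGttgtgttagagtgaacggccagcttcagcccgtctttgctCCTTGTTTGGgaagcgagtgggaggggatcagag
Flnc, 250 bases before the start, chr6:29432903-29433152, plus strand: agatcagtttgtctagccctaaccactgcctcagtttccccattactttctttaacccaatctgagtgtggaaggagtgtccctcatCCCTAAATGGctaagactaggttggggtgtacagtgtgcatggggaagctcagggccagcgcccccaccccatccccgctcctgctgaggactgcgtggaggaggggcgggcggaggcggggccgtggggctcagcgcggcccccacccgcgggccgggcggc
Cnn1, 250 bases before the start, chr9:22099003-22099252, plus strand: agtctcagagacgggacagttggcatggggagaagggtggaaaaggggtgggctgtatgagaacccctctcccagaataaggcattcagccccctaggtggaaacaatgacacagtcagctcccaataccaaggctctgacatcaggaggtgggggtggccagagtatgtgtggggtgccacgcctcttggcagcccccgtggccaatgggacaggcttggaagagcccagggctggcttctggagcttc
Mylk, 250 bases before the start, chr16:34784700-34784949, plus strand: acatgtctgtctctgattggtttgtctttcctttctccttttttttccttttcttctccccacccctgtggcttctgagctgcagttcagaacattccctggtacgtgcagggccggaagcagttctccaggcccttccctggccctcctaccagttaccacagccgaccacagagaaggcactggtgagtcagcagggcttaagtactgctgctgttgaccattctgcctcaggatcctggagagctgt
Cald1, start 1, 250 bases before the start, chr6:34598254-34598503, plus strand: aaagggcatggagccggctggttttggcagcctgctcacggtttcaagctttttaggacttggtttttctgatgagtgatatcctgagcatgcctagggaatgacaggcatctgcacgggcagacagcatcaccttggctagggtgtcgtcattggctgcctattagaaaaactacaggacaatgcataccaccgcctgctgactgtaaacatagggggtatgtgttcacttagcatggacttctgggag
Cald1, start 2, 250 bases before the start, chr6:34709194-34709443, plus strand: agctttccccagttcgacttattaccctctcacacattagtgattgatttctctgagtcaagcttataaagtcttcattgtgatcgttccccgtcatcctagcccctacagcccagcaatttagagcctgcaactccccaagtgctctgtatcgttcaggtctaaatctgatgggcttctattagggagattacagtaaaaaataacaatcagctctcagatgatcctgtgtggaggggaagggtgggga
RefSeq windows were matched for 6 of the 9 genes (all but Tagln, Myh11 and Actg2), and both strands were searched from 250 bases before to 50 after each start. None of the 6 held a full CArG box, which 1.63% of all 32851 windows held. Acta2 held 2 boxes with 1 G or C, starting 84 bases (CCCTATATGG) and 34 bases (CCTTGTTTGG) before the start, and Flnc held 1, starting 163 bases before (CCCTAAATGG). The windows of Cnn1, Mylk, Cald1 and Tpm2 held neither kind. Of all windows, 9.98% held a full box or one with 1 G or C. These matches describe the letters in the windows and are not measured binding.

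The expected counts of the discovery libraries totalled between 7536503 and 23662593, and steps in the lowest values of the time course implied between 8530000 and 13900000 fragments per library, a depth uncertain by a factor of 2. Hairpin B stood apart late in the course. The summed level of 14 pluripotency markers was 1175 FPKM at day 6 with the scrambled hairpin, 1544 FPKM with hairpin A and 5462 FPKM with hairpin B, and at day 9 it was 846, 1007 and 8317 FPKM. At day 9 the summed level of 16 cardiomyocyte markers was 569 FPKM with the scrambled hairpin, 107 FPKM with hairpin A and 35.6 FPKM with hairpin B. Results that rest on hairpin B are given with and without it. Braveheart itself was not analysed here. The time course p-values rest on the spread between 3 cultures that carry different hairpins, and the labels do not say whether the paired E14 and v6.5 libraries came from separate cultures, so their spread may be technical.

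The first question was when the contractile genes changed as stem cells differentiated, over the 3 cultures. The genes did not move as a block. Cnn1 and Flnc rose by day 3, Flnc and Cald1 stood higher at day 6, and Acta2, Mylk and Cald1 stood higher at day 9. The summed level of the 16 cardiomyocyte markers went up over the same days, from 18.5 FPKM at day 0 to 569 FPKM at day 9 with the scrambled hairpin, from 17.8 to 107 FPKM with hairpin A and from 17.7 to 35.6 FPKM with hairpin B. Of 15 tested, limma called 7 of these markers higher at day 9, as it did 10.3% of all genes tested. The part of these markers in the contractile genes' levels was not tested. Myh11 and Actg2, the myosin and the actin most restricted to smooth muscle, were under 1 FPKM in nearly every library and were not tested. Levels are FPKM, fragments per kilobase of transcript scaled to the mapped total, and changes are log2 differences of FPKM + 1, in which low genes appear to change less than they do. In such bulk samples, fewer cells of a type and less RNA per cell cannot be told apart.

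**Figure D1:**
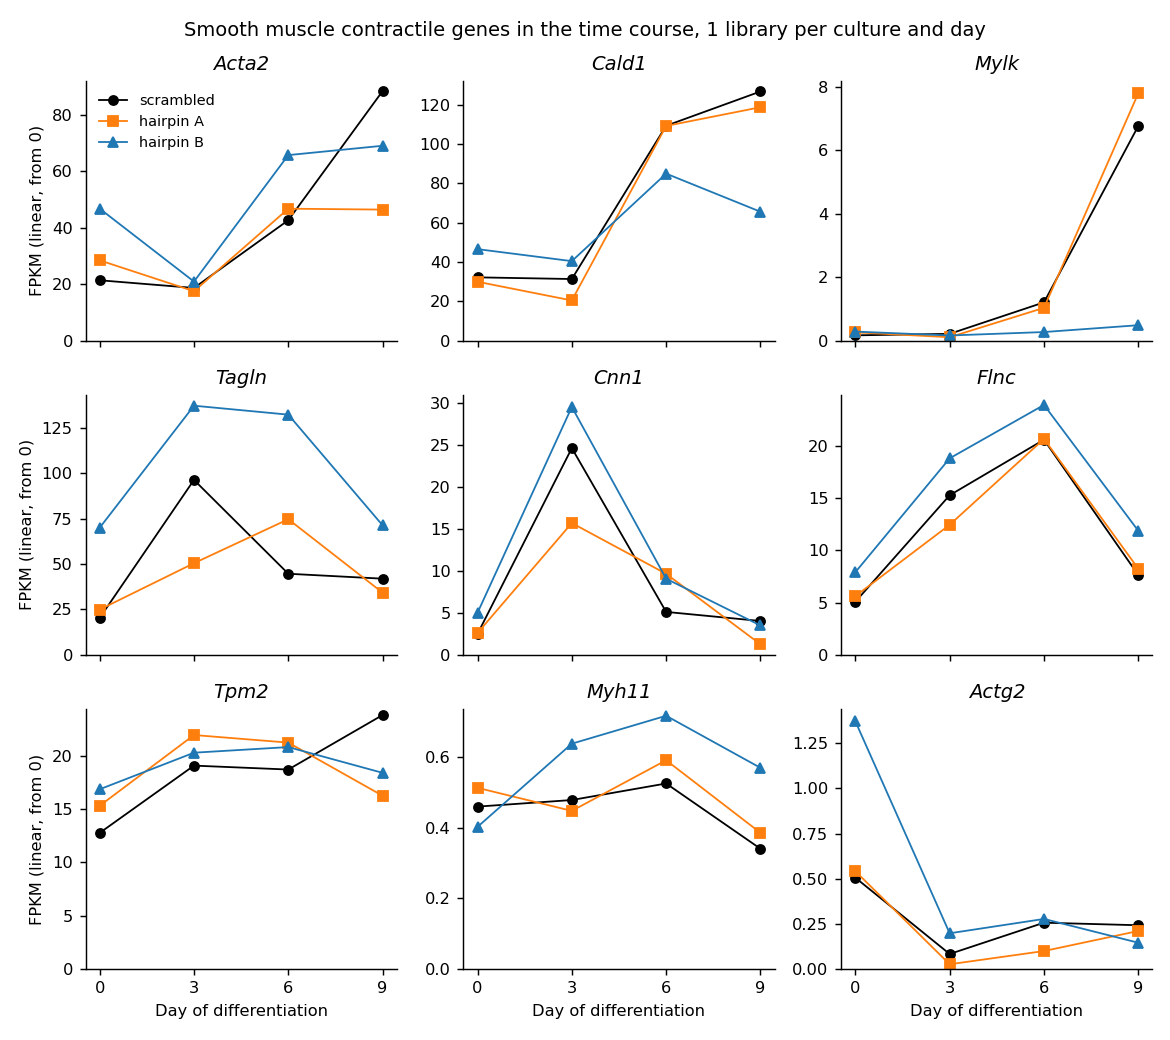
FPKM of each of the 9 genes (vertical axis, linear from 0, its own scale in each panel) against the day of differentiation, 1 point per library, for the scrambled culture (black circles), hairpin A (orange squares) and hairpin B (blue triangles). Cnn1 peaks at day 3 in all 3 cultures, Flnc peaks at day 6 in all 3, and Mylk reaches 6.77 and 7.80 FPKM at day 9 in the scrambled and hairpin A cultures against 0.488 FPKM in hairpin B.

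Acta2 (chr19:34315580-34329826, mm9) encodes smooth muscle alpha-actin, the main actin of vascular smooth muscle and of contractile fibroblasts. Its level at day 0 was 21.4 FPKM with the scrambled hairpin, 28.5 with hairpin A and 46.8 with hairpin B. It was 18.7, 17.5 and 20.9 FPKM at day 3, where all 3 libraries lay below all 3 of day 0. It was 42.7, 46.7 and 65.7 FPKM at day 6 and 88.4, 46.4 and 69.0 FPKM at day 9. The lowest value of day 9 lay just under the highest of day 0, so those groups overlapped. The change from day 0 was -0.66 ± 0.30 (SE) at day 3 (limma, adjusted p = 0.226), 0.71 ± 0.30 at day 6 (adjusted p = 0.145) and 1.08 ± 0.30 at day 9 (limma, adjusted p = 0.0436), and the last was called. With no filter on low values it was not (limma, adjusted p = 0.0622). Actg2 (chr6:83462902-83486245), the smooth muscle gamma-actin of gut and bladder, was 0.505, 0.541 and 1.37 FPKM at day 0. It was 0.0820, 0.0250 and 0.197 FPKM at day 3, then 0.256, 0.0984 and 0.276 FPKM at day 6 and 0.242, 0.210 and 0.144 FPKM at day 9. All later libraries lay below all of day 0, and 3 fragments give 0.19 to 0.31 FPKM for this gene, so these are at or near the limit of detection and no fold is given. The summed level of 14 fibroblast markers moved with it early on, from between 405 and 518 FPKM at day 0 to between 148 and 173 FPKM at day 3, and its part in the Actg2 and Acta2 levels was not tested.

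Myh11 (chr16:14194619-14291501), smooth muscle myosin heavy chain, stayed low throughout. In the same order of cultures its level was 0.459, 0.512 and 0.402 FPKM at day 0, 0.478, 0.447 and 0.637 FPKM at day 3, 0.525, 0.591 and 0.716 FPKM at day 6 and 0.340, 0.385 and 0.569 FPKM at day 9. Within a culture the highest day was at most 1.78 times the lowest, and the authors' deposited table marked 9 of the 12 values as low data. Mylk (chr16:34785035-35002520), the kinase that starts smooth muscle contraction and which also makes a non-muscle form, was 0.169, 0.264 and 0.287 FPKM at day 0 and 0.216, 0.110 and 0.164 FPKM at day 3. It was 1.21 and 1.04 FPKM at day 6 in the scrambled and hairpin A cultures and 0.273 FPKM in hairpin B. At day 9 it was 6.77, 7.80 and 0.488 FPKM. The highest day was 40.1 times the lowest in the scrambled culture, 71.1 times in hairpin A and 2.98 times in hairpin B, as ratios of FPKM. Over the 3 cultures the change to day 9 was 1.91 ± 0.55 (limma, adjusted p = 0.0457), a call lost with no filter (adjusted p = 0.0645) and under quantile normalisation (0.0506), and without hairpin B it was 2.77 (limma, adjusted p = 6.27e-05). All 3 libraries of day 9 lay above all 3 of day 0.

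Among the filament proteins, Cnn1 (chr9:21903696-21913665), calponin, which restrains the myosin motor, peaked at day 3. It was 2.47, 2.59 and 4.99 FPKM at day 0 and 24.6, 15.7 and 29.5 FPKM at day 3. It was back to 5.10, 9.63 and 9.05 FPKM at day 6 and 4.02, 1.24 and 3.48 FPKM at day 9. Each library of day 3 lay above every other library of the course, and the change from day 0 was 2.48 ± 0.38 (limma, adjusted p = 0.0081). At day 6 the change was 1.04 ± 0.38 (adjusted p = 0.107) and at day 9 it was -0.19 ± 0.38 (limma, adjusted p = 0.724).

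Tagln (chr9:45737710-45744141) encodes transgelin, an early marker of the smooth muscle lineage. It was 20.2, 24.9 and 69.9 FPKM at day 0, 96.3, 50.4 and 137 FPKM at day 3, 44.6, 74.6 and 132 FPKM at day 6 and 41.9, 34.2 and 71.3 FPKM at day 9. Within each culture day 0 was the lowest day, but hairpin B at day 0 lay above hairpin A at day 3, so the groups overlapped. The changes of 1.38 ± 0.52 at day 3 and 1.19 ± 0.52 at day 6 were not called (limma, adjusted p = 0.145 and 0.154). With the culture as a block both were called, at adjusted p = 0.0231 and 0.0306 (limma), where 9.64% and 15.6% of all genes were called.

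Cald1 (chr6:34659443-34725469), caldesmon, an actin-binding brake on contraction, rose later. It was 32.2, 30.0 and 46.5 FPKM at day 0, 31.3, 20.5 and 40.4 FPKM at day 3, 109, 109 and 84.9 FPKM at day 6 and 127, 119 and 65.5 FPKM at day 9. All libraries of days 6 and 9 lay above all of days 0 and 3, with changes of 1.47 ± 0.30 at day 6 (limma, adjusted p = 0.024) and 1.46 ± 0.30 at day 9 (adjusted p = 0.0225). Tpm2 (chr4:43527583-43536260), beta-tropomyosin, which winds along the actin filament, was 12.8, 15.3 and 16.8 FPKM at day 0, 19.1, 21.9 and 20.3 FPKM at day 3, 18.7, 21.2 and 20.8 FPKM at day 6 and 23.8, 16.2 and 18.4 FPKM at day 9. Days 3 and 6 lay above all of day 0, yet the changes of 0.43 ± 0.16 and 0.42 ± 0.16 were not called (limma, adjusted p = 0.136 and 0.111).

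Flnc (chr6:29383152-29411888), filamin C, cross-links actin filaments and is best known from heart and skeletal muscle. It was 5.08, 5.62 and 7.92 FPKM at day 0, 15.3, 12.5 and 18.8 FPKM at day 3, 20.6, 20.7 and 24.0 FPKM at day 6 and 7.64, 8.25 and 11.9 FPKM at day 9. The 3 cultures kept close together, and all libraries of days 3 and 6 lay above all of days 0 and 9. The change from day 0 was 1.20 ± 0.20 at day 3 (limma, adjusted p = 0.0111) and 1.68 ± 0.20 at day 6 (adjusted p = 0.00321). From day 6 to day 9 it was -1.17 ± 0.20 (limma, adjusted p = 0.0761), which was called with the culture as a block (adjusted p = 0.0184), as was the day 9 change of 0.51 from day 0 (limma, adjusted p = 0.0238 with the block and 0.0911 without).

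**Figure D2:**
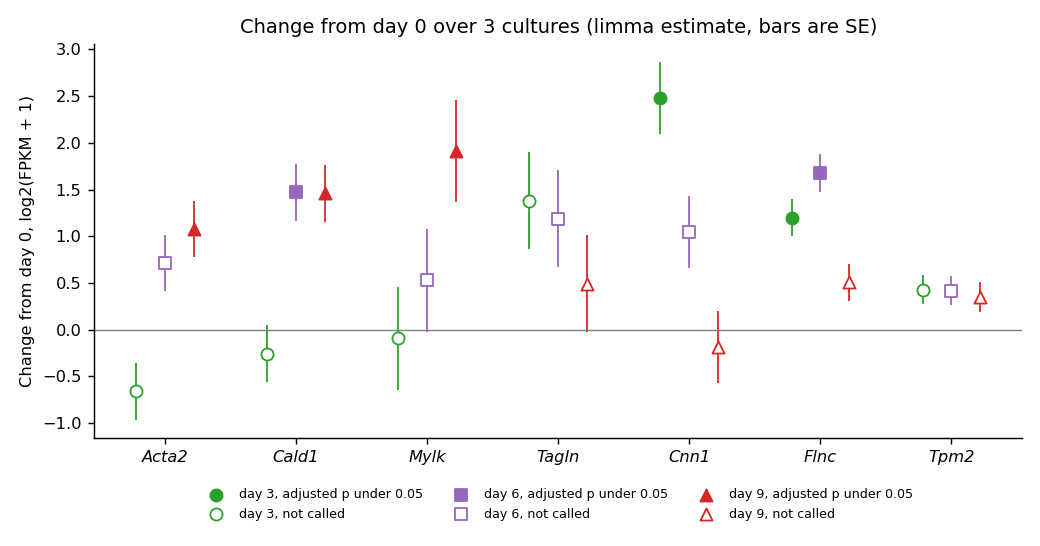
Change from day 0 on the log2(FPKM + 1) scale (vertical axis) for the 7 genes tested, at day 3 (green circles), day 6 (purple squares) and day 9 (red triangles), with bars of 1 SE from limma and filled symbols for an adjusted p under 0.05. Cnn1 and Flnc carry the filled symbols at day 3, Cald1 and Flnc those at day 6, and Acta2, Mylk and Cald1 those at day 9.

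In all, 2 of 7 tested genes were called at day 3 (Cnn1 and Flnc, both higher) where 6.04% of all 14108 genes tested were called and 3.26% were higher. There were 2 at day 6 (8.68% of all genes called, 4.97% higher) and 3 at day 9 (16.6% called, 10.3% higher), each of them higher. From day 6 to day 9 limma called 0 (0.0425% of all genes), with 3 at an unadjusted p under 0.05, as were 1985 of all 14108 genes. Over all 9 genes, 3 lay wholly above day 0 at day 3, 5 at day 6 (Myh11 among them) and 2 at day 9, where 22.2%, 23.2% and 19.5% of all genes tested did so. Myh11 and Actg2 are in these counts but were too low to be among the genes tested. Wholly below day 0 were Acta2 and Actg2 at day 3 and Actg2 at days 6 and 9, where 19.7%, 15.6% and 11.5% of all genes tested were. The median change of the 7 genes was 0.43 at day 3, 1.04 at day 6 and 0.51 at day 9, beside 0.01, 0.07 and 0.10 over all genes. These calls were lost without either of 2 cultures. Without the scrambled culture or without hairpin A, limma called 0 of the 7 on days 3, 6 and 9, and at most 0.147% of all genes. Between 1 and 4 of the 7 were at an unadjusted p under 0.05. So were between 1252 of 13590 and 2058 of 13682 of all genes. Without hairpin B, 3 were called at day 3, 4 at day 6 and 4 at day 9, and 35.9%, 52.9% and 65.1% of all genes.

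Across the 12 libraries, the genes fell into an early and a late pattern, a grouping made after their values were seen. The 4 genes Tagln, Cnn1, Tpm2 and Flnc had pairwise Pearson correlations of log2(FPKM + 1) between 0.56 and 0.79, and the 3 genes Acta2, Cald1 and Mylk between 0.56 and 0.83. The 12 pairs that cross the sets ran from -0.50 to 0.31, with Cnn1 and Mylk the lowest. These points share cultures and days and are not independent. The 3 genes most like the mean standardised profile of the 7, among 4030 genes with an SD of at least 0.5, were Tpm1 (r = 0.96), Perp (0.94) and Clu (0.93). Tpm1, the alpha-tropomyosin gene, was 114, 124 and 275 FPKM at day 0 and 457, 452 and 451 FPKM at day 6.

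Other genes of the apparatus and its control moved as follows. Of 30 other smooth muscle contractile genes, 27 were tested, and limma called 3 at day 3, none of them lower. It called 6 at day 6, of which 5 were higher, and 3 at day 9, of which 2 were higher. Of all genes tested, 6.04%, 8.68% and 16.6% were called on these days, which is also the background of the next 2 lists. The 3 called at day 3 were Myl9 (1.98 ± 0.30, adjusted p = 0.00723), the myosin regulatory light chain, Cnn2 (1.02 ± 0.26, adjusted p = 0.0499), a calponin of non-muscle cells, and Flna (0.61 ± 0.15, adjusted p = 0.0425), filamin A. Myl9 was also highest at day 3 in each culture, with 7.66, 8.55 and 16.9 FPKM at day 0, 51.6, 31.1 and 53.2 FPKM at day 3, 15.8, 19.8 and 18.8 FPKM at day 6 and 18.0, 12.8 and 13.6 FPKM at day 9. At day 6 the largest calls of the list were Tpm1 (1.52 ± 0.33), Tpm4 (1.36 ± 0.35) and Susd5 (-1.20 ± 0.30). At day 9 they were Prkg1 (1.65 ± 0.50), the cGMP-dependent kinase that relaxes smooth muscle, Tpm4 (1.27 ± 0.35) and Susd5 (-1.16 ± 0.30).

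Of 20 genes for SRF and its cofactors, 19 were tested. Day 3 had 1 called higher and 3 lower. Day 6 had 2 higher and 1 lower, and day 9 had 1 higher and 2 lower. Srf was among those lower at day 9 (-0.92 ± 0.25, limma, adjusted p = 0.0395), when Acta2, Cald1 and Mylk were called higher. Fhl2, a LIM protein that binds SRF, was higher at day 6 (1.89 ± 0.36, adjusted p = 0.0185). Myocd, myocardin, was at most 0.0989 FPKM on days 0 and 3, then 1.11, 0.540 and 0.175 FPKM at day 6 and 0.813, 0.265 and 0.0184 FPKM at day 9, in the same order of cultures. Myocd and Mylk were both lowest in hairpin B on the late days, and in hairpin A Myocd lay below the scrambled culture while Mylk was at 1.04 and 7.80 FPKM. Of 16 TGF-beta ligands, receptors and targets, limma called 2 higher at day 6 (Tgfb2, 3.12 ± 0.59, and Tgfb1, 1.09 ± 0.29) and 1 lower at day 9 (Smad7, -2.11 ± 0.55).

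The second question was whether the 2 Braveheart hairpins changed these genes. None of the contractile genes was called on any day. Limma called 0 of 7 at days 0, 3, 6 and 9, where 0.0213%, 0.0284%, 0.0425% and 0.0354% of all genes were called. It had 0 of 7 at an unadjusted p under 0.05, where 66, 37, 148 and 199 of all 14108 genes were. At day 9 the estimates, hairpins minus scrambled, were -1.10 ± 0.94 for Mylk, -0.66 ± 0.56 for Cnn1, -0.63 ± 0.39 for Acta2, -0.52 ± 0.52 for Cald1, -0.44 ± 0.20 for Tpm2, 0.34 ± 0.36 for Flnc and 0.23 ± 0.84 for Tagln, with adjusted p between 0.873 and 0.948 (limma). These errors are wide. They rest on 1 scrambled library a day and on the spread between hairpins A and B, which differed late in the course. The result does not show that the genes were alike.

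The 2 hairpins parted most for Mylk. At day 9 hairpin A was 0.18 above the scrambled library on the log2(FPKM + 1) scale and hairpin B differed from it by -2.38. Hairpin B was also the lower at day 6, at -0.79 against -0.12 for hairpin A. The negative Mylk estimate thus rests on hairpin B, whose pluripotency markers stood at 8317 FPKM at day 9 against 846 FPKM with the scrambled hairpin, and their part in it was not tested. For Cald1 the day 9 differences were -0.09 with hairpin A and -0.94 with hairpin B. Acta2 and Cnn1 went the other way, with more distance in hairpin A: Acta2 differed by -0.91 with hairpin A and -0.35 with hairpin B, and Cnn1 by -1.16 and -0.16.

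Tagln was above the scrambled library on every day with hairpin B. It stood 1.74 above the scrambled library at day 0, before differentiation, 0.51 above at day 3, 1.55 above at day 6 and 0.75 above at day 9. Hairpin A differed by 0.28, -0.92, 0.73 and -0.29 on the same days, so its sign turned. At day 0, 7 of the 9 genes were above the scrambled library with both hairpins and 0 were below with both, where 32% and 29.9% of all genes were. At day 9 it was 2 above and 5 below (Acta2, Cnn1, Cald1, Tpm2 and Actg2), beside 22.3% and 34.2% of all genes. At day 3, 1 gene was above with both and 1 below (26.7% and 27.8% of all genes), and at day 6, 6 were above and 2 below (27.8% and 33.4%). The shares are over the genes tested, which leave out Myh11 and Actg2. The change of the hairpin effect between days was tested for the 6 pairs of days, 42 tests in all, and limma called 0, with 2 at an unadjusted p under 0.05. Of all genes it called 0.0496% for day 9 minus day 0, 0.0425% for day 6 minus day 0, 0.0142% for day 3 minus day 0 and for day 9 minus day 6, and 0.0354% for day 9 minus day 3 and for day 6 minus day 3. The lowest unadjusted p values were 0.0363 for Tpm2 and 0.0442 for Acta2 (limma), both day 9 against day 0 and at an adjusted p of 0.9995, with estimates of -0.75 ± 0.29 and -1.38 ± 0.55. For day 9 minus day 0, 157 of all 14108 genes were at an unadjusted p under 0.05.

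**Figure D3:**
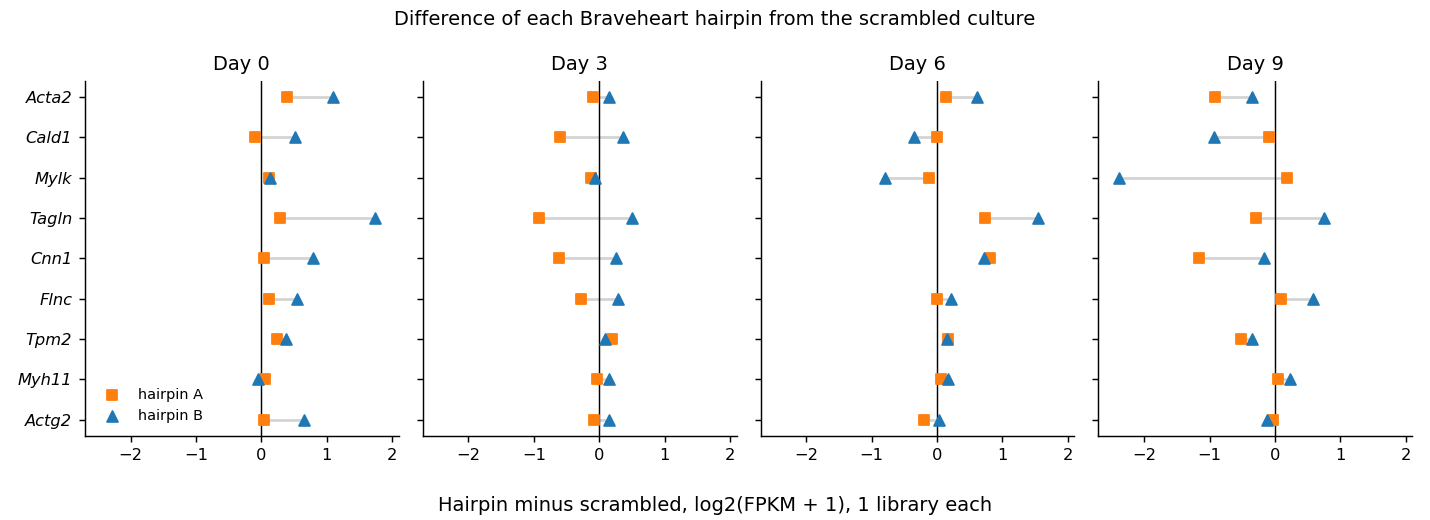
Difference of each Braveheart hairpin culture from the scrambled culture of the same day on the log2(FPKM + 1) scale (horizontal axis) for the 9 genes, hairpin A as orange squares and hairpin B as blue triangles, 1 library each. At day 0 the symbols of 7 genes lie right of 0, and at day 9 Mylk spans from 0.18 with hairpin A to -2.38 with hairpin B.

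The discovery set asked where these genes stand in fibroblasts, reprogrammed lines and stem cells. By TPM, the measure of level used here, the fibroblast library was the highest of the 8 for all 9 genes, as it was for 18.3% of all genes tested. Stem cells were lower for each, the partially reprogrammed lines were lower than fibroblasts for 7 of the 9 and lower than stem cells for 5, and line 11.5 had 61.5% of the fibroblast level of Actg2 and 86.8% of that of Mylk. Levels here are TPM, a length-corrected share of all transcripts, and their range in parentheses is the authors' deposited lower and upper bound. Tests used edgeR on the expected counts. MEF and miPS had 1 library each, so they are assumed to vary like the other groups. The 14 pluripotency markers summed to 146 TPM in the fibroblasts and to between 4401 and 10037 TPM in the other 7 libraries.

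In the fibroblasts, levels per transcript ran in the order Acta2 (7896 TPM), Tagln (4082), Tpm2 (954), Cald1 (709), Actg2 (419), Cnn1 (368), Flnc (212), Myh11 (12.7) and Mylk (11.8). The bounds of Myh11 (11.5 to 13.8) and Mylk (9.28 to 14.5) overlapped, and no other neighbours in this order did. Summed over the 9 genes the fibroblasts had 14664 TPM, the v6.5 libraries 919 and 804, the E14 libraries 353 and 333, miPS 188, 11.5 394 and 11.3 117.

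**Figure D4:**
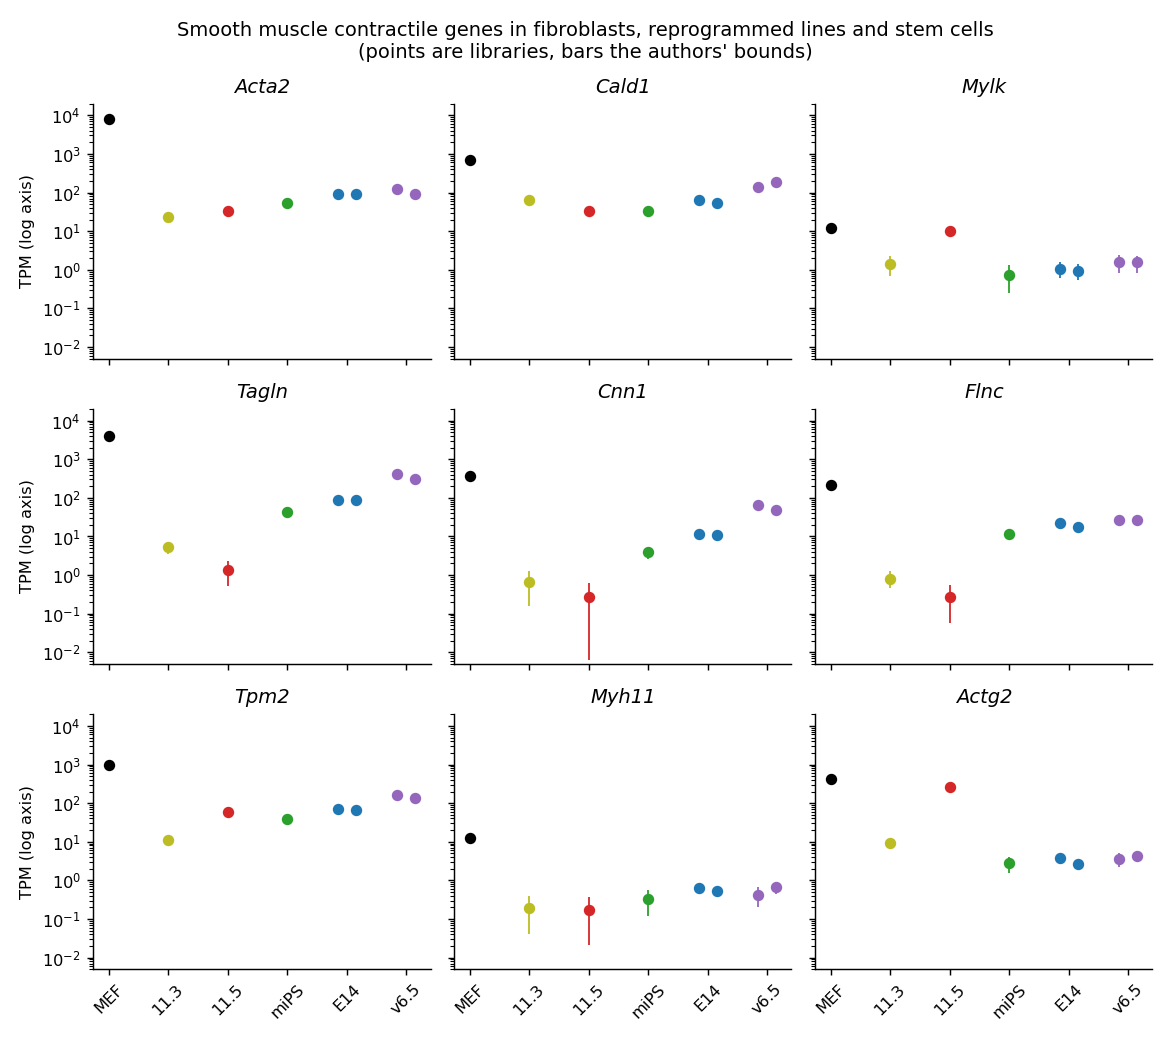
TPM of each of the 9 genes (vertical axis, logarithmic) in the 8 discovery libraries, 1 point per library with bars from the authors' lower to upper bound. The fibroblast point is the highest in every panel, and line 11.5 lies close to it for Mylk and Actg2 while its points for Tagln, Cnn1 and Flnc are the lowest of their panels.

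Acta2 was 93.2 and 91.3 TPM in E14, 125 and 89.8 TPM in v6.5, 54.3 TPM in miPS, 23.1 TPM in 11.3 and 33.7 TPM in 11.5. All of these were at or under 1.59% of the fibroblast level. Embryonic stem cells differed from fibroblasts by -6.62 ± 0.34 on the log2 scale (edgeR, adjusted p = 0.0010), and were higher than the partially reprogrammed lines by 1.71 ± 0.32 (edgeR, adjusted p = 0.0122). The last call was lost without the second E14 library and without either partial line. Actg2 was 3.70 and 2.68 TPM in E14, 3.60 and 4.17 TPM in v6.5, 2.77 TPM in miPS, 9.55 TPM (7.39 to 11.9) in 11.3 and 258 TPM (244 to 271) in 11.5. Line 11.5 thus held 61.5% of the fibroblast level and 11.3 held 2.28%, and the 5 pluripotent libraries were all under 1%. Stem cells differed from fibroblasts by -7.45 ± 1.21 (edgeR, adjusted p = 0.0088) and from the partially reprogrammed lines by -5.57 ± 1.08 (edgeR, adjusted p = 0.0134).

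Mylk had the same leading libraries as Actg2. It was 1.06 and 0.954 TPM in E14, 1.57 and 1.55 TPM in v6.5, 0.752 TPM in miPS, 1.41 TPM (0.694 to 2.23) in 11.3 and 10.2 TPM (8.28 to 12.2) in 11.5. By TPM, line 11.5 was at 86.8% of the fibroblast level, and every other library was at or under 13.4%. By expected count line 11.5 was the higher, with 290 against 125 in the fibroblasts, in libraries totalling 7553667 and 8762640. The cause of this difference between the measures was not tested. Stem cells were lower than fibroblasts (-3.63 ± 1.03, edgeR, adjusted p = 0.0446), a call lost without either E14 library or without the second v6.5 library (adjusted p between 0.0672 and 0.127). They were also lower than the 2 partial lines (-3.74 ± 0.91, edgeR, adjusted p = 0.0267). Without 11.5 the second difference was -0.81 for Mylk (adjusted p = 0.339) and -1.78 for Actg2 (edgeR, adjusted p = 0.0299). Both calls were lost without the first E14 library (adjusted p = 0.0886 for Mylk and 0.0542 for Actg2), without the second (0.0972 and 0.0583) and with limma on log2(TPM + 1), where Mylk differed by -1.20 and Actg2 had an adjusted p of 0.0572. Myh11, by contrast, was 0.646 and 0.536 TPM in E14, 0.421 and 0.668 TPM in v6.5, 0.333 TPM in miPS, and 0.195 and 0.170 TPM in 11.3 and 11.5, with expected counts of 1 and 0 in those lines. Relative to library size the fibroblasts had 1173 times as many (exact 95% interval 210 to 46428, counting error only).

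Tagln was 87.4 and 90.1 TPM in E14, 402 and 316 TPM in v6.5, 42.2 TPM in miPS, 5.19 TPM in 11.3 and 1.36 TPM in 11.5. Cnn1 was ordered alike by line, with 11.4 and 11.2 TPM in E14, 65.2 and 47.2 TPM in v6.5, 3.91 TPM in miPS, 0.662 TPM in 11.3 and 0.269 TPM, on 0 reads, in 11.5. Flnc was 22.1 and 18.0 TPM in E14, 26.0 and 26.7 TPM in v6.5, 11.5 TPM in miPS, 0.811 TPM in 11.3 and 0.266 TPM in 11.5. These 3 genes were lowest in the 2 partially reprogrammed lines, below every stem cell library. Fibroblasts exceeded those lines 1492-fold for Tagln (95% interval 1082 to 2120), 2035-fold for Cnn1 (695 to 9872, on 3 reads in the lines) and 801-fold for Flnc (573 to 1157). Stem cells exceeded them by 5.69 ± 0.68 for Tagln (edgeR, adjusted p = 0.00328), 6.72 ± 0.76 for Cnn1 (adjusted p = 0.00285) and 6.07 ± 0.88 for Flnc (adjusted p = 0.00576) on the log2 scale. Of 13 fibroblast markers tested in this comparison, edgeR called 6 higher and 2 lower in stem cells, with a median of 3.38, where 29.7% of all genes were called. Stem cells had been on feeders and the partial lines had not, and the part of feeder RNA was not tested.

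Cald1 and Tpm2 also serve non-muscle cells. Cald1 was 62.3 and 53.6 TPM in E14, 135 and 186 TPM in v6.5, 33.5 TPM in miPS, 65.2 TPM in 11.3 and 33.1 TPM in 11.5. Tpm2 was 71.7 and 64.8 TPM in E14, 159 and 132 TPM in v6.5, 38.7 TPM in miPS, 11.2 TPM in 11.3 and 57.6 TPM in 11.5. Both were lower in the partial lines than in fibroblasts (-4.11 ± 0.49 and -5.08 ± 0.85, edgeR, adjusted p = 0.00528 and 0.0147), while their difference between stem cells and the partial lines was not called (edgeR, adjusted p = 0.158 and 0.127). For Tpm2 that difference was 1.47 ± 0.63, and it was 3.04 and called without line 11.5 (edgeR, adjusted p = 0.0194). It was also called with DESeq2 (adjusted p = 0.0323), with no filter (0.0154) and with limma on log2(TPM + 1) (0.0493).

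By count, stem cells against fibroblasts gave 9 of 9 genes lower, where 28.6% of all 16773 genes tested were called and 15.4% were lower. Mylk and Flnc lost their calls without the first E14 library, Mylk, Tpm2 and Flnc without the second, and Mylk without the second v6.5 library. The share of all genes called also fell without either E14 library, and it rose without the second v6.5 library. Stem cells against the partial lines gave 5 higher and 2 lower (29.7% of all genes called, 16.1% higher and 13.6% lower). Fewer were called without the second E14 library, where the share of all genes called fell as well. The partial lines against fibroblasts gave 7 lower and 0 higher (13.8% called, 8.87% lower). The first 2 comparisons share the 4 stem cell libraries and the last shares its libraries with both. In the partial lines against fibroblasts, Actg2 differed by -1.88 ± 1.37 (edgeR, adjusted p = 0.431) and Mylk by 0.11 ± 1.28 (adjusted p = 0.989), both with wide errors. Without line 11.5 Actg2 differed by -5.65 (edgeR). The median over the 9 genes was -4.19 for stem cells against fibroblasts, 1.71 for stem cells against partial lines and -8.33 for partial lines against fibroblasts, beside 0.19, 0.05 and 0.15 over all genes.

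The 2 partially reprogrammed lines came from the same fibroblasts with the same factors. Relative to library size, 11.5 exceeded 11.3 by 28.5-fold for Actg2 (95% interval 22.6 to 36.5), 15.2-fold for Mylk (9.58 to 25.7), 5.30-fold for Tpm2 (4.15 to 6.84) and 1.44-fold for Acta2 (1.20 to 1.73). It had less of 3 others, at 0.471 of the 11.3 level for Cald1 (0.414 to 0.535), 0.233 for Tagln (0.0863 to 0.541) and 0.0966 for Flnc (0.0189 to 0.310). The intervals are exact and cover counting error only, and with 1 library per line there is no test of the lines. Myocd, the SRF partner, was higher in 11.5 than in 11.3 as well, and there it was the highest of all libraries. It was 21.6 TPM on 376 reads, against 2.09 TPM on 16 reads in 11.3 and 1.75 TPM on 7.71 in fibroblasts. The other 5 libraries had at most 1.19 TPM and at most 8.03 reads. Their TPM values are near the limit of detection, as miPS had 0.854 TPM on an expected count of 0.004. Relative to library size, Myocd in 11.5 was 23.4-fold above 11.3 (14.2 to 41.4). Stem cells differed from the partial lines for Myocd by -6.61 ± 1.15 (edgeR, adjusted p = 0.00997). Of the 14 fibroblast markers, 4 had 0 reads in 11.5 (Col1a1, Col3a1, Dcn and Lum), while S100a4 was at 107% of the fibroblast level, Vim at 19.2%, Fap at 13.0% and Fn1 at 7.48%. Of 8 mural cell markers, 4 had 0 reads in 11.5 (Pdgfrb, Rgs5, Abcc9 and Kcnj8), and the last 3 of these had 0 reads in 11.3 and miPS as well. Des, on the same list, was 67.4 TPM in 11.5, 276% of the fibroblast level, and 3.31 TPM in 11.3. It made up most of the mural sum of 11.5. The 14 fibroblast markers summed to 27570 TPM in the fibroblasts, 2263 TPM in 11.3 and 1794 TPM in 11.5, and the 8 mural markers to 419, 8.90 and 74.0 TPM.

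Among the other lists, 28 of 30 other smooth muscle contractile genes were tested, and edgeR called 17 lower in stem cells than in fibroblasts, 19 lower in the partial lines than in fibroblasts, and 11 higher and 2 lower in stem cells than in the partial lines. Of all genes tested, 28.6%, 13.8% and 29.7% were called in these comparisons, in this order. By direction, 15.4% were lower in the first and 8.87% in the second, and in the third 16.1% were higher and 13.6% lower. These shares are also the background of the lists that follow. Lmod1, leiomodin, which starts actin filaments in smooth muscle, had an expected count of 755 in the fibroblasts and 0 in both partial lines. The expected count of Myl9 was 3958 in fibroblasts and 5 and 3 in the partial lines. For SRF and its cofactors, stem cells had 8 of 20 genes lower than fibroblasts, and 3 higher and 6 lower than the partial lines, with Klf4 (-4.47 ± 0.48) beside Myocd among the largest. The reprogrammed lines carry a Klf4 transgene, and its reads cannot be told from those of the gene. Of 16 TGF-beta genes, stem cells had 11 lower than fibroblasts, and the partial lines had 7 lower.

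The 2 stem cell lines were the next comparison. Both v6.5 libraries lay above both E14 libraries for 6 of the 9 genes, Tagln, Cnn1, Mylk, Cald1, Tpm2 and Flnc, as they did for 26% of all genes tested. The mean TPM of v6.5 was 4.99 times that of E14 for Cnn1, 4.05 times for Tagln, 2.77 times for Cald1 and 2.13 times for Tpm2, but 1.17 times for Acta2. EdgeR called 0 of 9 (0.489% of all genes), with 3 at an unadjusted p under 0.05, as were 3140 of all 16773 genes. DESeq2 called 2 of 9 (6.78% of all genes). For E14 minus v6.5 the estimates were -2.57 ± 0.53 for Cnn1 (edgeR, adjusted p = 0.0933), -2.25 ± 0.58 for Tagln (adjusted p = 0.127) and -1.25 ± 0.41 for Cald1 (adjusted p = 0.183). Cnn1 and Tagln were each called under 5 of 11 other settings, over which the adjusted p of Cnn1 ran from 1.1e-05 to 0.731 and that of Tagln from 0.00164 to 0.802.

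Stem cells and miPS cells had been on fibroblast feeders, so levels were set against the fibroblast library gene by gene. The median of 14 fibroblast markers was 2.73% and 3.86% of the fibroblast level in E14, 2.24% and 4.36% in v6.5 and 5.79% in miPS. The median of the 9 contractile genes was 5.11% and 4.23% in E14, 12.3% and 12.6% in v6.5 and 2.64% in miPS. The fibroblast markers ran from 0.70% (Col1a1) to 14.6% (Fap) in the first v6.5 library and from 1.05% (Col1a1) to 24.3% (Pdgfra) in the second. There Acta2 was at no more than 1.59% and Actg2 at 0.859% and 0.996%. In these 2 libraries Tagln stood at 9.86% and 7.74%, Cnn1 at 17.7% and 12.8% and Cald1 at 19.1% and 26.2%. The part of feeder RNA in each level was not tested.

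**Figure D5:**
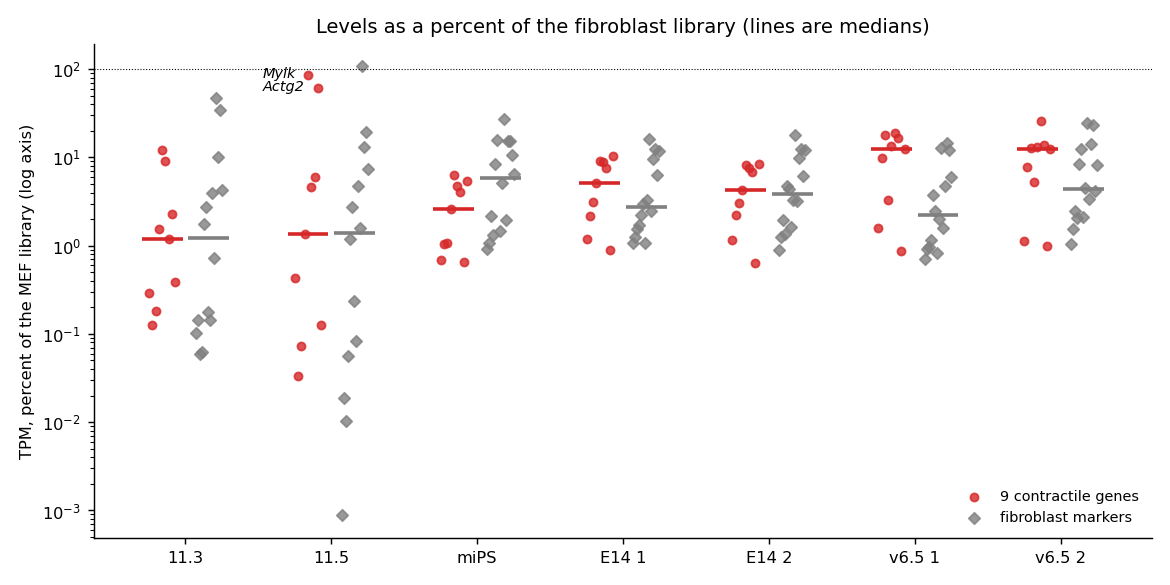
TPM as a percent of the fibroblast library (vertical axis, logarithmic) for the 9 contractile genes (red circles) and 14 fibroblast markers (grey diamonds) in the other 7 discovery libraries, with lines at the medians. Both v6.5 medians of the contractile genes, 12.3% and 12.6%, lie above those of the fibroblast markers, and in line 11.5 Actg2 and Mylk lie at 61.5% and 86.8%.

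The miPS library was below all 4 stem cell libraries for the 8 genes other than Actg2, as it was for 14.9% of all genes tested. EdgeR called 0 of 9 against the stem cells (0.0298% of all genes), with 3 at an unadjusted p under 0.05, as were 1334 of all 16773 genes. DESeq2 called 1, Cnn1 (1.04% of all genes). The estimates were -2.65 ± 0.71 for Cnn1 (edgeR, adjusted p = 0.435), -1.98 ± 0.71 for Tagln (adjusted p = 0.578) and -1.43 ± 0.50 for Cald1 (adjusted p = 0.555).

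Likeness over the 8 discovery libraries, a description across libraries that share lines, was taken with the fibroblasts included. The 3 genes nearest to the mean standardised profile of the 9, of 10844 eligible, were Csf1 (r = 0.987), Col12a1 (0.985) and Tgfb1i1 (0.985), which encodes a focal adhesion protein induced by TGF-beta. Between members, the 21 pairs without Mylk and Actg2 had correlations of log2(TPM + 1) between 0.75 and 0.99. Mylk and Actg2 were correlated with each other at 0.99 and with the other 7 genes at between 0.03 and 0.61. Little exact sequence was shared between the transcripts of the actin genes. Of the 36-base windows of Acta2 transcripts, 0 occurred in those of Actg2, Acta1 or Actc1, 0.556% in Actb and 0.972% in Actg1. Of the windows of Actg2, 0.190% occurred in Actc1 and 0 in the other 4 actins. These shares allow no mismatch and leave out the levels of the actins, so they do not measure how many reads were shared.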

How the data were processed

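RNA was sequenced from 12 time course and 8 discovery libraries. For the time course the authors deposited FPKM values. The submitters' processing notes name TopHat 1.14, Bowtie 0.12.7, Cufflinks 1.3.0 and the mm9 build. For the discovery set the authors deposited RSEM expected counts and TPM values. The same notes name TopHat 1.3, RSEM and mm9 for it. Beside each TPM the authors deposited a lower and an upper bound, a signal range that is shown and not tested. The 2 tables were normalised separately and levels were not compared across them. The sources used here do not say whether counting used strand. The authors' ratios, 8 columns, were not used.

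FPKM were tested with limma 3.58.1 on log2(FPKM + 1) for genes at 1 FPKM or more in 2 libraries. The course model compared days over the 3 cultures, with a term for scrambled or hairpin. It did not use the culture as a block, so the main course calls ignore the pairing of days within a culture. The hairpin model compared both hairpins with the scrambled culture on each day. Expected counts were rounded and tested with edgeR 4.0.16 (quasi-likelihood, TMM) for genes at 1 CPM or more in 2 libraries, with DESeq2 1.42.0 as an alternative, in R 4.3.3. P-values were adjusted by Benjamini-Hochberg over all genes tested, and a gene was called at an adjusted p under 0.05. The fits were run on simulated data with independent noise and no culture effect, a simpler setting that does not show how they perform on these libraries. Each culture was 1 transduced line followed over days, so the culture pairs libraries across days. Deviations of the same culture on 2 days had correlations between -0.09 and 0.64 over 14108 genes. Alternatives were no filter, another pseudocount, quantile normalisation, other size factors, a replicate block and leaving out each library or culture. Of other lists, at most the 3 called genes with the largest change per comparison are named as results. Exceptions are Myocd, the pluripotency, fibroblast and mural markers and the other days of named genes, which were chosen with their values known. For likeness, the 3 genes nearest to the mean profile are named. The 9 genes and all lists were chosen with earlier results of these data known. Intervals and floors cover counting error only. The day 3 result of the TGF-beta list is not reported here.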

Additional observations from a re-analysis of the deposited data

How the results depend on the processing

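Of the counts of genes called, 102 alternatives stayed within 1.5 times the main count, 10 gave more and 8 gave fewer, and of the values of single genes 854 kept direction and call, 29 gained a call, 33 lost one and 21 reversed. The course counts of 2, 2 and 3 genes at days 3, 6 and 9 became 0 on each day without the scrambled culture or without hairpin A. At most 0.147% of all genes were called there. With no filter day 9 gave 1 (8.73% of all genes). Without hairpin B day 6 gave 4 (52.9% of all genes), and day 9 against day 6 gave 2 in place of 0 (26.8%), or 1 with the culture as a replicate block (0.241%). Stem cells against the partial lines gave 4 in place of 7 without E14 replicate 2. For miPS against stem cells, DESeq2 and no filter each gave 1 in place of 0 (1.04% and 0.765% of all genes). For E14 against v6.5, in place of 0, DESeq2 and no filter each gave 2 (6.78% and 4.88% of all genes), and limma on log2(TPM + 1) gave 3 (14.4%). With the replicate number as a block this comparison gave 3 (Tagln, Cnn1 and Cald1), where 9.03% of all genes were called. The labels do not say that these numbers pair libraries, and same-numbered libraries deviated together with a correlation of 0.32.

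Values that reversed are given with the lowest and highest over the leave-outs. In partial lines against fibroblasts, Mylk was -0.014 with DESeq2 and with RLE size factors, -1.30 with limma on TPM, and ran from -2.80 without line 11.5 to 1.01 without line 11.3. In E14 against v6.5, Myh11 ran from -0.29 to 0.51. Over the course, Cnn1 at day 9 ran from -0.55 to 0.056 (without hairpin A), Tpm2 from day 6 to 9 from -0.27 to 0.082 (without hairpin A) and Cald1 from day 6 to 9 from -0.12 to 0.17 (without hairpin B). For the hairpin effect, Cald1 at day 0 ran from -0.10 to 0.52. At day 3 Acta2 ran from -0.088 to 0.16, Tagln from -0.92 to 0.51, Cnn1 from -0.62 to 0.25, Cald1 from -0.59 to 0.36 and Flnc from -0.28 to 0.28. At day 9 Tagln ran from -0.29 to 0.75 and Mylk from -2.38 to 0.18. For day 9 minus day 0, Mylk ran from -2.51 to 0.054 and Flnc from -0.24 to 0.24, with 0.13 under quantile normalisation. The leave-outs of that contrast were chosen after seeing the data. Leaving out a library leaves fewer samples by construction, and otherwise the cause was not tested.

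The hairpin comparison has 1 scrambled library a day, MEF and miPS have 1 library each, and Actg2 in the time course lies at or near the depth limit from day 3 on.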
